A study of Mus musculus with 6 samples.

Results

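The 10 genes described here mark states of the heart fibroblast, the connective tissue cell that makes the extracellular matrix. Meox1, Cthrc1, Cilp, Comp, Fap and Ddah1 were taken as genes of activation, and Pdgfra, Tcf21, Pi16 and Serpinf1 as genes of general or resting fibroblasts. They were picked by symbol from 50385 entries of a gene count matrix, each symbol had a single entry, and all 10 were among the 20472 genes that were tested. RNA had been sequenced from hearts of male mice lacking dystrophin and utrophin (Mdx/Utrn dKO), which were 2 to 3 months old before the 12 weeks of treatment and older by that time at collection. The setanaxib group (3 libraries) had received the Nox4 inhibitor setanaxib at 60 mg/kg/day by oral gavage for 12 weeks, and the vehicle group (3 libraries) corn oil by the same route for as long. Both groups carry both mutations, and no heart with intact dystrophin or utrophin and no heart from before treatment is among these libraries. The comparison asks how the fibroblast genes of a dystrophic heart differ after Nox4 inhibition.

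In a healthy heart most fibroblasts are quiescent and carry the platelet-derived growth factor receptor PDGFRA and the transcription factor TCF21. Under injury, stretch or transforming growth factor beta they become activated, divide, and lay down collagen and other matrix, which in muscular dystrophy accumulates as scar between muscle cells. Nox4 is an oxidase that makes hydrogen peroxide and is known to act downstream of transforming growth factor beta in fibroblasts.

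Libraries held 110803307 to 154003318 estimated counts. Values below are CPM, counts scaled to a common library total with the trimmed mean of M values, and fold changes are setanaxib minus vehicle on the log2 scale from edgeR's quasi-likelihood test, with Benjamini-Hochberg adjustment over all 20472 genes. The titles give each library a number of its own but do not say in words that it names a mouse, and p-values measure only the spread among these libraries. Heart muscle markers were abundant in all of them, with Myh6 at 16357 to 20761 CPM in setanaxib libraries and at 16260 to 19820 CPM in vehicle libraries. Setanaxib replicate 3 stood apart: the atrial light chain Myl7 was at 637 CPM there, the airway secretory gene Scgb1a1 at 598 CPM and the fat droplet gene Cidec at 50.2 CPM. Myl7 was at 0.605 and 1.33 CPM in setanaxib replicates 1 and 2, and at 23.3, 0.103 and 21.4 CPM in vehicle replicates 1, 2 and 3, so the share of tissue other than ventricle differed within both groups. Results that turn on such libraries are given with and without them. In whole-heart RNA, fewer fibroblasts and less RNA of a gene per fibroblast cannot be told apart.

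All 10 fibroblast genes had lower fitted levels with setanaxib, as did 48.4% of all genes, but by very different amounts. The 6 activation genes had log2 fold changes from -2.69 to -0.39 with a median of -1.63, and the 4 resting genes from -0.88 to -0.03 with a median of -0.48, against a median of 0.01 over all genes tested. In 4 of the 6 activation genes (Meox1, Cthrc1, Cilp and Ddah1) and in 1 of the 4 resting genes (Pi16), every setanaxib library was below every vehicle library. Such a pattern was seen in 9.46% of all genes, and its opposite, setanaxib wholly above, in 8.11% of all genes and none of the 10. No gene of the 10 passed edgeR after adjustment over all genes, where 0.00488% of genes passed as lower (1 gene, which is not among the 10). At an unadjusted p under 0.05 edgeR had 5 of the 10, namely Meox1, Cilp, Ddah1, Pi16 and Serpinf1, against 4.69% of all genes on the lower side and 3.76% on the higher side. DESeq2 called 4, Meox1, Cilp, Ddah1 and Pi16, against 1.51% of all genes called lower and 0.899% called higher, and limma-voom called none of the 10 and 0 of all genes.

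**Figure D1:**
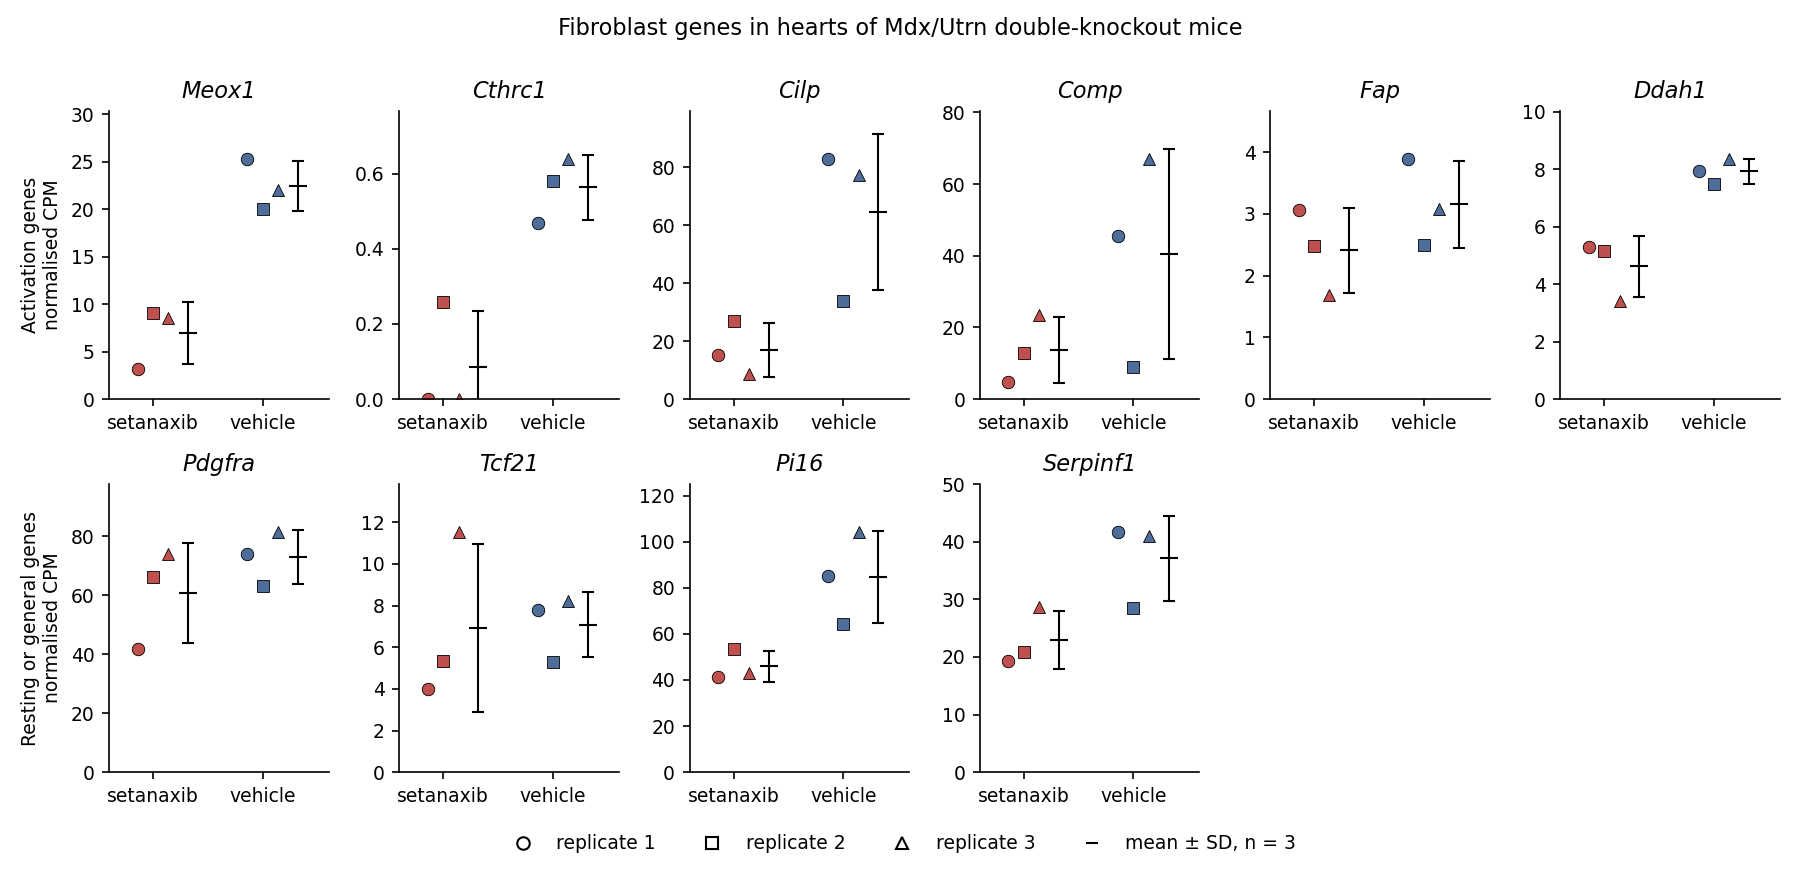
Normalised CPM (y axes, linear, from 0) of the 6 activation genes (upper row) and the 4 resting or general genes (lower row) in each setanaxib and vehicle library; marker shapes give the replicate and the bar the mean ± SD of 3 libraries. Setanaxib libraries lie below all vehicle libraries for Meox1, Cthrc1, Cilp, Ddah1 and Pi16, and the groups overlap for the other 5 genes.

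Meox1 (ENSMUSG00000001493) encodes a homeobox transcription factor that in mouse hearts under pressure load drives fibroblast activation. It was at 3.22, 9.12 and 8.54 CPM in setanaxib replicates 1, 2 and 3, against 25.3, 20.0 and 22.1 CPM in vehicle replicates 1, 2 and 3. The groups were far apart, and the highest setanaxib library was below the lowest vehicle library by a wide margin. Its mean was 6.96 ± 3.25 CPM with setanaxib and 22.4 ± 2.67 CPM with vehicle (SD, n = 3 each), a log2 fold change of -1.69 (SE 0.39, 95% interval -2.63 to -0.75). The edgeR adjusted p was 0.37 and the DESeq2 adjusted p 0.00141. The low value of setanaxib replicate 1 did not make the difference, since the log2 fold change was -1.35 without that library and -1.86 without setanaxib replicate 3. Its close relative Meox2 overlapped between the groups, with 5.19 to 15.1 CPM in setanaxib libraries and 14.5 to 17.0 CPM in vehicle libraries (log2 fold change -0.45, SE 0.38, edgeR adjusted p = 0.815).

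Cilp (ENSMUSG00000042254), cartilage intermediate layer protein, is a secreted matrix protein that heart fibroblasts make during fibrosis. It was at 15.1, 26.9 and 8.52 CPM in setanaxib replicates 1, 2 and 3, and at 82.9, 33.7 and 77.2 CPM in vehicle replicates 1, 2 and 3. The groups did not overlap, yet vehicle replicate 2 lay closer to setanaxib replicate 2 than to the other two vehicle libraries. The means were 16.8 ± 9.30 CPM with setanaxib and 64.6 ± 26.9 CPM with vehicle (SD, n = 3 each), with a log2 fold change of -1.94 (SE 0.51, 95% interval -3.18 to -0.70). The edgeR adjusted p was 0.418 and the DESeq2 adjusted p 0.00399. Without setanaxib replicate 3, the library with the lowest Cilp and the highest Myl7, the log2 fold change was -1.62. Its relative Cilp2 was listed at 0 in setanaxib replicates 1 and 2 and at 18.2 CPM in setanaxib replicate 3, against 0.997, 0 and 1.98 CPM in vehicle replicates 1, 2 and 3, and so stood out only in the library that also held most Myl7.

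Ddah1 (ENSMUSG00000028194) encodes an enzyme that breaks down asymmetric dimethylarginine, a natural inhibitor of nitric oxide synthases. It was at 5.31, 5.14 and 3.40 CPM in setanaxib replicates 1, 2 and 3 and at 7.94, 7.47 and 8.36 CPM in vehicle replicates 1, 2 and 3. Vehicle libraries were close to each other and all lay above the setanaxib libraries. The mean was 4.62 ± 1.06 CPM with setanaxib and 7.92 ± 0.442 CPM with vehicle (SD, n = 3 each), a log2 fold change of -0.78 (SE 0.20, 95% interval -1.26 to -0.30; edgeR adjusted p = 0.396, DESeq2 adjusted p = 0.0356). Without setanaxib replicate 3 the Ddah1 log2 fold change was -0.60. The paralog Ddah2 overlapped between the groups (-0.35 on the log2 scale, SE 0.29, edgeR adjusted p = 0.815).

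Cthrc1 (ENSMUSG00000054196), a secreted glycoprotein of activated fibroblasts in injured mouse hearts, was barely present. It had 0, 34 and 0 estimated counts in setanaxib replicates 1, 2 and 3, against 57, 85 and 87 in vehicle replicates 1, 2 and 3. All 3 vehicle libraries were higher, but at under 1 CPM everywhere. The log2 fold change of -2.69 (SE 1.63, 95% interval -6.63 to 1.25, edgeR adjusted p = 0.719) was not distinguishable from the spread between libraries. It rested on setanaxib replicate 2, the only setanaxib library above 0: without it the fitted value was -9.23 (edgeR adjusted p = 0.208), and limma-voom gave -5.17 with all libraries (adjusted p = 0.408), neither of which is a bound. A 0 in estimated counts can also be a failed estimate, so the gene is given as listed at 0 rather than as absent.

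Comp (ENSMUSG00000031849), cartilage oligomeric matrix protein, is a member of the thrombospondin family that marks fibroblasts of mature scars. It was at 4.84, 12.8 and 23.4 CPM in setanaxib replicates 1, 2 and 3 and at 45.4, 8.91 and 67.0 CPM in vehicle replicates 1, 2 and 3. The groups overlapped, because vehicle replicate 2 was lower than 2 of the 3 setanaxib libraries. The log2 fold change was -1.56 (SE 0.82, 95% interval -3.56 to 0.43, edgeR adjusted p = 0.682), and ran from -2.20 without setanaxib replicate 3 to -0.99 without vehicle replicate 3. Within each group Comp was highest in a library with Myl7 above 20 CPM. Among the 3 libraries with Myl7 under 2 CPM, Comp averaged 8.81 CPM in the 2 setanaxib libraries and was 8.91 CPM in the vehicle library. Among the 3 others it was 23.4 CPM in the setanaxib library and averaged 56.2 CPM in the 2 vehicle libraries. Fibromodulin (Fmod), another cartilage and tendon matrix gene, was likewise lowest in replicate 2 within the vehicle group, with 3.15, 2.03 and 27.0 CPM in setanaxib replicates 1, 2 and 3 and 15.3, 1.48 and 11.5 CPM in vehicle replicates 1, 2 and 3. What part the amount of non-ventricular tissue has in the Comp values was not tested.

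Fap (ENSMUSG00000000392), a serine protease on the surface of activated fibroblasts, was low and showed the smallest difference of the activation genes. It was at 3.07, 2.47 and 1.68 CPM in setanaxib replicates 1, 2 and 3 and at 3.89, 2.5 and 3.07 CPM in vehicle replicates 1, 2 and 3. The groups overlapped, with setanaxib replicate 3 well below the vehicle libraries and replicate 2 just under the lowest of them. The log2 fold change was -0.39 (SE 0.28, 95% interval -1.08 to 0.30, edgeR adjusted p = 0.777), and single libraries moved it: it was -0.18 with setanaxib replicate 3 left out, -0.22 with vehicle replicate 1 left out and -0.61 with setanaxib replicate 1 left out. Its relative Dpp4, a marker of adventitial fibroblasts, was at 1.78, 2.56 and 9.0 CPM in setanaxib replicates 1, 2 and 3 and at 2.48, 2.48 and 2.31 CPM in vehicle replicates 1, 2 and 3, where again setanaxib replicate 3 alone stood out.

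**Figure D2:**
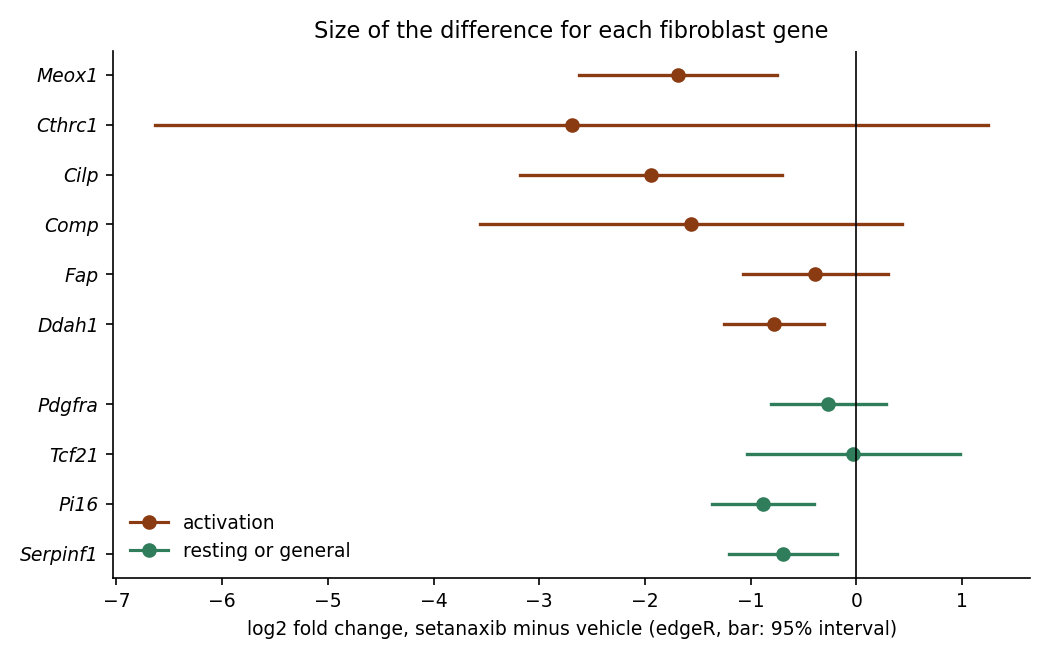
Log2 fold change, setanaxib minus vehicle (x axis), of each fibroblast gene with its 95% interval from edgeR; activation genes are above and resting or general genes below. The intervals of Meox1, Cilp, Ddah1, Pi16 and Serpinf1 lie below 0, and those of the other 5 genes span 0.

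Among the resting genes, Pdgfra and Tcf21 overlapped between the groups. Pdgfra (ENSMUSG00000029231), the receptor by which fibroblasts sense platelet-derived growth factor, was at 41.7, 66.2 and 74.1 CPM in setanaxib replicates 1, 2 and 3 and at 74.1, 63.3 and 81.5 CPM in vehicle replicates 1, 2 and 3. Setanaxib replicate 1 was the only library under 60 CPM. The log2 fold change was -0.26 (SE 0.22, 95% interval -0.81 to 0.28, edgeR adjusted p = 0.815) and became -0.06 when setanaxib replicate 1 was left out, or -0.43 when setanaxib replicate 3 was. Pdgfra overlaps antisense and small RNA entries in the GENCODE annotation of another build, and whether reads were counted by strand is not stated in these sources, so its values could include reads of those entries.

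Tcf21 (ENSMUSG00000045680), the basic helix-loop-helix factor of resident heart fibroblasts, was at 3.97, 5.32 and 11.5 CPM in setanaxib replicates 1, 2 and 3 and at 7.77, 5.29 and 8.21 CPM in vehicle replicates 1, 2 and 3. Setanaxib libraries held both the lowest and the highest value. The log2 fold change was -0.03 (SE 0.42, 95% interval -1.04 to 0.98, edgeR adjusted p = 0.993), a wide interval on both sides of 0. Without setanaxib replicate 3 it was -0.61, and without setanaxib replicate 1 it was 0.24. The epicardial marker Msln and the airway gene Scgb1a1 were also at their highest in setanaxib replicate 3, at 11.1 and 598 CPM, and their part in the Tcf21 value was not tested.

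Pi16 (ENSMUSG00000024011), peptidase inhibitor 16, marks progenitor-like fibroblasts of the adventitia and other tissue borders. It was at 41.2, 53.4 and 43.0 CPM in setanaxib replicates 1, 2 and 3 and at 85.1, 64.5 and 104 CPM in vehicle replicates 1, 2 and 3. All setanaxib libraries were below all vehicle libraries. The mean was 45.9 ± 6.57 CPM with setanaxib and 84.6 ± 19.9 CPM with vehicle (SD, n = 3 each), a log2 fold change of -0.88 (SE 0.20, 95% interval -1.36 to -0.40; edgeR adjusted p = 0.361, DESeq2 adjusted p = 0.00366). Without setanaxib replicate 3 the log2 fold change was -0.84. Of the 10 genes Pi16 had the lowest unadjusted edgeR p, at rank 216 of 20472. An antisense entry overlaps Pi16 in the GENCODE annotation, with the same limit from the unknown strand setting.

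Serpinf1 (ENSMUSG00000000753) encodes pigment epithelium-derived factor, a secreted serpin without protease inhibitor activity. It was at 19.3, 20.9 and 28.6 CPM in setanaxib replicates 1, 2 and 3 and at 41.7, 28.6 and 41.0 CPM in vehicle replicates 1, 2 and 3. The groups touched, with setanaxib replicate 3 and vehicle replicate 2 at nearly the same value. The log2 fold change was -0.69 (SE 0.21, 95% interval -1.21 to -0.18; edgeR adjusted p = 0.464, DESeq2 adjusted p = 0.0725), and -0.88 without setanaxib replicate 3.

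Promoter sequences are shown for Cilp, Pi16 and Serpinf1, of which Cilp and Pi16 had setanaxib libraries wholly below vehicle libraries. RefSeq promoters (build GRCm38.p6, 250 bases before to 50 after the start) were at hand for 6 of the 10 genes, and these 3 are the ones that held a match to any of 7 motifs searched on both strands. Capitals mark the matches, which are CAGCTG, a form of the E-box that basic helix-loop-helix factors bind, and CAGACA, the CAGA box of SMAD factors.
Cilp, chr9:65264930-65265229, plus strand: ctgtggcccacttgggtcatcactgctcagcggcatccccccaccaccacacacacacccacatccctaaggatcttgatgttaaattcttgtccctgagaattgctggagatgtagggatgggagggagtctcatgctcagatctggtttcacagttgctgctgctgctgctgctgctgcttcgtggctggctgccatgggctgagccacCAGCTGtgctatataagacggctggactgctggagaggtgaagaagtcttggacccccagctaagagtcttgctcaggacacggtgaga
Pi16, chr17:29318632-29318931, plus strand: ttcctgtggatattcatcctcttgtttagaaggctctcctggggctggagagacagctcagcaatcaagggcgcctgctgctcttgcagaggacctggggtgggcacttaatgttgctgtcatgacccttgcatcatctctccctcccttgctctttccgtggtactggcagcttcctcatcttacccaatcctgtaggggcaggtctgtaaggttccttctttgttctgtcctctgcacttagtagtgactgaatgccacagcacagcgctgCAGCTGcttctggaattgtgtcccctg
Serpinf1, chr11:75422574-75422873, minus strand: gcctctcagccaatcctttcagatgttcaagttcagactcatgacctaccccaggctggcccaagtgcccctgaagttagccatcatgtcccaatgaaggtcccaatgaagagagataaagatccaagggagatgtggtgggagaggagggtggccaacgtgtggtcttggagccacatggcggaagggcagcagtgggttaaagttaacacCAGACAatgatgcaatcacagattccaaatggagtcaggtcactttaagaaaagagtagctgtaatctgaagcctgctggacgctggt
The E-box form CAGCTG, which reads the same on both strands, started 39 bases before the Cilp start site and at base 24 of the Pi16 transcript, and is held by 16.3% of all 32851 promoters in the table. The CAGA box started 38 bases before the Serpinf1 start site, and CAGACA is held by 21% of promoters. None of the 6 promoters held the AP-1 letters TGANTCA (7.81% of promoters), the TEAD letters GGAATG (14.7%), the homeodomain core TAATTA (5.29%), TATAAA (13.6%) or a CArG box (1.63%), and no match overlapped another. These matches describe letters only.

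Relative to general fibroblast genes of the same library, Meox1 was lower with setanaxib whichever gene it was set against. Such ratios of estimated counts do not depend on how libraries are scaled to each other. Meox1 over Pdgfra was 0.0770, 0.138 and 0.115 in setanaxib replicates 1, 2 and 3 and 0.342, 0.316 and 0.271 in vehicle replicates 1, 2 and 3. The groups were as well separated as for Meox1 itself, with means of 0.11 ± 0.0307 with setanaxib and 0.309 ± 0.0358 with vehicle (SD, n = 3 each). Over Tcf21, Pi16 and Serpinf1 the Meox1 ratio with setanaxib averaged 0.336, 0.546 and 0.489 times that with vehicle, each without overlap.

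Cilp gave the same picture against 3 of the 4 general genes. Cilp over Pdgfra was 0.362, 0.406 and 0.115 in setanaxib replicates 1, 2 and 3 and 1.12, 0.533 and 0.948 in vehicle replicates 1, 2 and 3. Against Serpinf1 the groups overlapped, since setanaxib replicate 2 was at 1.29 and vehicle replicate 2 at 1.18. The ratios of Ddah1 and Fap overlapped between the groups against all 4 general genes. The mean ratio of Ddah1 with setanaxib was 0.764 times that with vehicle over Pdgfra, 0.752 over Tcf21, 1.05 over Pi16 and 0.977 over Serpinf1. Fap over Pdgfra averaged 0.0445 ± 0.0261 with setanaxib and 0.0432 ± 0.00809 with vehicle (SD, n = 3 each). Over all 24 pairs of an activation and a resting gene, the mean ratio was lower with setanaxib in 19. The groups did not overlap and setanaxib was lower in 10 pairs, and in 0 pairs was setanaxib higher without overlap. The share of such pairs over all genes was not computed. Some gaps were narrow: Meox1 over Pi16 was 0.199 in setanaxib replicate 3 and 0.212 in vehicle replicate 3. Cilp over Pi16 was 0.503 in setanaxib replicate 2 and 0.522 in vehicle replicate 2. Cthrc1 was listed at 0 in setanaxib replicates 1 and 3, which sets its ratios there to 0. Those 10 pairs involve only Meox1, Cilp and Cthrc1, and pairs share genes, so they are not independent.

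**Figure D3:**
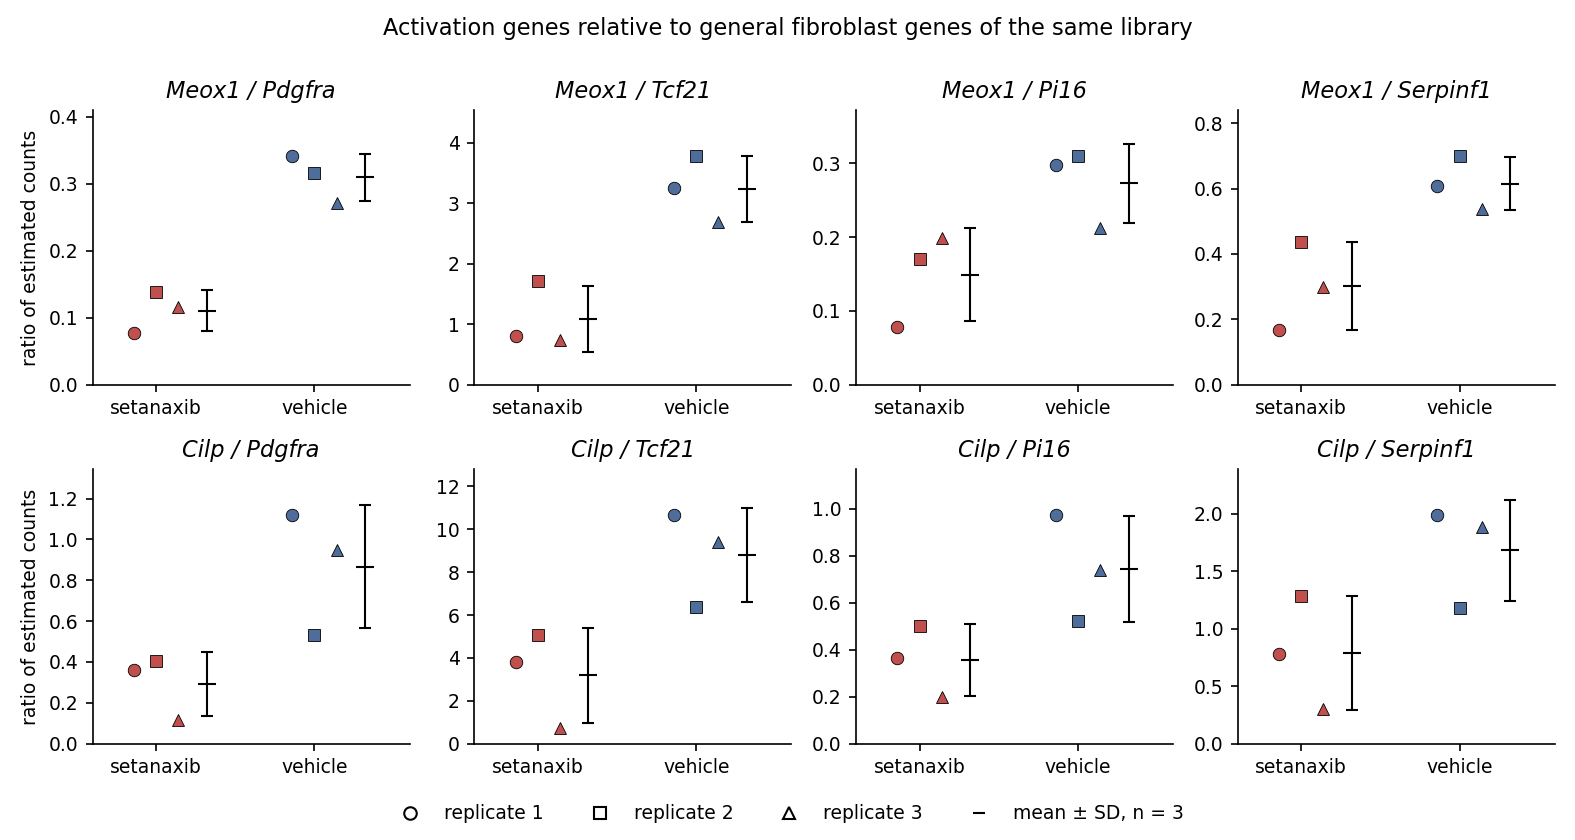
Ratio of the estimated counts of Meox1 (upper row) and Cilp (lower row) to those of 4 general fibroblast genes in the same library (y axes, linear, from 0); marker shapes give the replicate and the bar the mean ± SD of 3 libraries. Setanaxib libraries are below all vehicle libraries in every panel but Cilp over Serpinf1.

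The resting genes did not keep one ratio to each other either. Pi16 over Pdgfra was 0.987, 0.806 and 0.581 in setanaxib replicates 1, 2 and 3 and 1.15, 1.02 and 1.28 in vehicle replicates 1, 2 and 3, with no overlap. Tcf21 over Pdgfra, by contrast, was 0.0951, 0.0804 and 0.156 in setanaxib replicates 1, 2 and 3 and 0.105, 0.0836 and 0.101 in vehicle replicates 1, 2 and 3, with overlapping groups. The mean log2 CPM of the activation genes minus that of the resting genes was -3.27, -2.41 and -3.80 in setanaxib replicates 1, 2 and 3, against -1.83, -2.14 and -1.88 in vehicle replicates 1, 2 and 3. This score was lower in every setanaxib library, by -1.21 on average, and by -0.78 when Cthrc1 was left out.

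The libraries that were lowest differed between the 2 sets of genes. Setanaxib replicate 1 held the lowest value of all 6 libraries for all 4 resting genes and for 2 activation genes, Meox1 and Comp. That library also had the highest share of mitochondrial counts, 30%, against 20.5% to 26.8% in the others. What part this has in its values was not tested. Setanaxib replicate 3 was the lowest library for the other 4 activation genes, tied at 0 with replicate 1 for Cthrc1, but held the highest Tcf21 of all libraries. Setanaxib replicate 2 was never the lowest of the 6 libraries for any of the 10. Among libraries with Myl7 under 2 CPM, 6 of the 10 genes were below the vehicle library in both setanaxib libraries, as were 35.3% of all genes, namely Meox1, Cthrc1, Cilp, Ddah1, Pi16 and Serpinf1. Among the 3 libraries with more Myl7, 8 of the 10 were below both vehicle libraries in the setanaxib library, all but Pdgfra and Tcf21, as were 39.2% of all genes. Meox1 kept much the same size in both sets, at 0.309 times the vehicle level among low-Myl7 libraries and 0.361 times among the others, whereas Cilp was at 0.623 and 0.106 times. With 3 libraries in each set these values carry no test.

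Per kilobase of annotated exon, the order of the 10 genes differed between the groups. The exon length joined all annotated transcripts of a gene, in another build, so levels compare between genes only roughly. With setanaxib, Serpinf1 was highest at 9.71 ± 2.12 CPM per kilobase, then Pi16 at 7.21 ± 1.03 and Pdgfra at 6.06 ± 1.68, and the activation genes Comp, Cilp and Meox1 followed at 4.61 ± 3.14, 3.96 ± 2.19 and 3.12 ± 1.46 (SD, n = 3). With vehicle, Serpinf1 at 15.7 ± 3.13 was followed by Cilp at 15.2 ± 6.33, Comp at 13.6 ± 9.89 and Pi16 at 13.3 ± 3.12, which did not differ beyond their spread, then Meox1 at 10.1 ± 1.2 and Pdgfra at 7.28 ± 0.912. With lengths of 2228 bases for Meox1 and 10024 bases for Pdgfra, Meox1 was thus below Pdgfra with setanaxib and above it with vehicle. Which transcripts were present was not examined, and shorter ones would change this order. Tcf21, Ddah1, Fap and Cthrc1 closed the order in both groups, at 2.96, 1.16, 0.425 and 0.0541 CPM per kilobase with setanaxib and 3.02, 1.99, 0.557 and 0.354 with vehicle. Tcf21 did not differ beyond its spread from Meox1 with setanaxib.

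Genes of the matrix that activated fibroblasts lay down were mostly lower, by less than Meox1 and Cilp at the median. Of 19 tested genes of this list 16 were lower with setanaxib, with a median log2 fold change of -0.92. In 13 of them the setanaxib libraries were wholly below, against 9.46% of all genes, 9 were called by DESeq2, against 1.51%, and none passed edgeR over all genes. Lrrc15, Cdh11 and Ccn4, activation genes of the same list, had log2 fold changes of 0.17, 0.41 and 0.01. For Cdh11 and Ccn4 this rests on setanaxib replicate 3. Cdh11 was at 3.31, 4.91 and 20.1 CPM in setanaxib replicates 1, 2 and 3, and at 5.41 to 9.02 CPM in vehicle libraries. Ccn4 was at 0.841, 2.59 and 8.92 CPM in the same order, and at 3.68 to 4.45 CPM in vehicle libraries. Periostin (Postn), a matricellular protein of activated fibroblasts, was at 37.8, 54.0 and 43.3 CPM in setanaxib replicates 1, 2 and 3 and at 134, 88.4 and 154 CPM in vehicle replicates 1, 2 and 3 (log2 fold change -1.48, SE 0.24, edgeR adjusted p = 0.234). Col8a1, a short-chain collagen, was at 11.7 to 21.4 CPM with setanaxib and at 35.9 to 45.3 CPM with vehicle (log2 fold change -1.29, SE 0.23). Thbs4, a thrombospondin and relative of Comp, differed by -2.20 (SE 0.48) on the log2 scale. The fibrillar collagens Col1a1 and Col3a1 were at -0.92 (SE 0.29) and -0.94 (SE 0.25), with edgeR adjusted p of 0.49 and 0.42.

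Contractile genes of the myofibroblast, which smooth muscle shares, did not follow. Of 8 tested, 5 were lower and 3 higher, with a median of -0.20 and 2 non-overlapping, lower genes, Cald1 and Actn1, a count to be read against 9.46% of all genes. Acta2, smooth muscle actin, was at 182, 198 and 67.8 CPM in setanaxib replicates 1, 2 and 3 and at 198, 134 and 207 CPM in vehicle replicates 1, 2 and 3 (log2 fold change -0.27, SE 0.41, edgeR adjusted p = 0.911). Cald1, caldesmon, had the lowest p of the list at -0.38 (SE 0.09, edgeR adjusted p = 0.361, DESeq2 adjusted p = 0.000717). Genes of matrifibrocytes, the scar cells that also make Comp, were split, with 3 of 6 lower, a median of -0.18 and no gene without overlap. The 3 higher genes, Chad, Cilp2 and Fmod, each had their highest value in setanaxib replicate 3, and their direction turns on that library. Cilp2 was at 18.2 CPM there and at 0 in setanaxib replicates 1 and 2. Fmod was at 27.0 CPM there and at 3.15 and 2.03 CPM in setanaxib replicates 1 and 2. Angptl7 was at -1.03 (SE 0.44), while Chad was at 0.259, 0.456 and 8.92 CPM in setanaxib replicates 1, 2 and 3 and at 1.31, 0.219 and 0.794 CPM in vehicle replicates 1, 2 and 3, high only in the library with most Myl7.

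**Figure D4:**
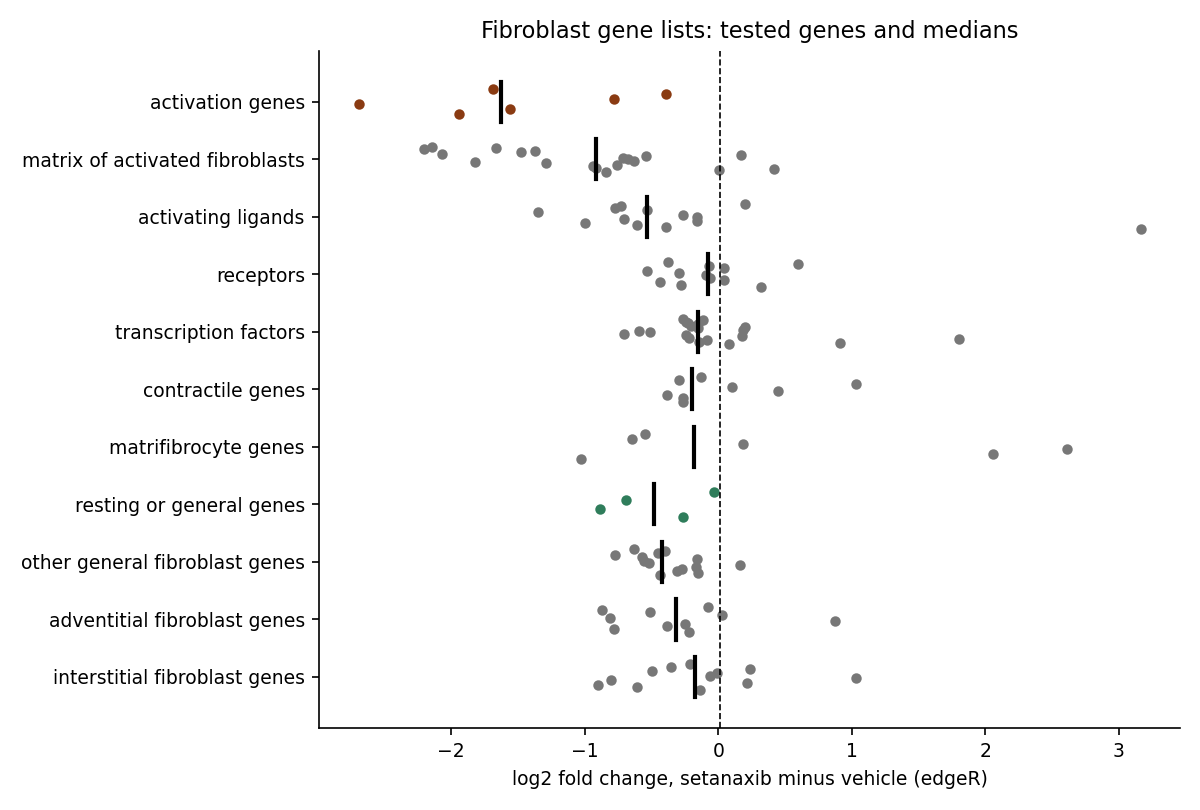
Log2 fold change, setanaxib minus vehicle (x axis), of each tested gene of 11 fibroblast lists (dots) with the list's median (black bar); the dashed line is the median of all genes tested, 0.01. Matrix genes of activated fibroblasts (median -0.92) lie nearest to the activation genes (median -1.63), and receptors (median -0.08) lie nearest to the dashed line.

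Other general fibroblast genes were lower by less. Of 14 tested, 13 were lower, with a median of -0.42, and the groups did not overlap for 2, Lum and Vim, a share near the 9.46% of all genes. Lumican (Lum), a collagen-binding proteoglycan, was at 23.0 to 31.6 CPM with setanaxib and at 36.3 to 47.7 CPM with vehicle (log2 fold change -0.57, SE 0.16, edgeR adjusted p = 0.45). Decorin (Dcn), its abundant relative, overlapped between the groups (-0.15 on the log2 scale, SE 0.20, edgeR adjusted p = 0.891). Adventitial fibroblast genes, the company of Pi16, had 8 of 10 lower with a median of -0.32, and 6 without overlap, against 9.46% of all genes. On the log2 scale Efhd1 was at -0.81 (SE 0.15), Mfap5 at -0.87 (SE 0.25), Ly6a at -0.51 (SE 0.16) and Cd34 at -0.39 (SE 0.14), with edgeR adjusted p from 0.287 to 0.548. The groups overlapped for Dpp4, Cd55, Sema3c and Igfbp6, at 0.88, -0.25, -0.07 and 0.03. Interstitial fibroblast genes had 9 of 12 lower, a median of -0.17 and 3 without overlap, Col15a1, Smoc2 and Cxcl14, at -0.61 (SE 0.17), -0.35 (SE 0.13) and -0.90 (SE 0.42).

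Ligands that activate fibroblasts were mostly lower, while receptors and transcription factors showed no common direction of that size. Of 13 tested ligands 11 were lower, with a median of -0.54, and 4 were lower without overlap, against 9.46% of all genes. Agt, angiotensinogen, was higher without overlap, at 106, 8.31 and 9.21 CPM in setanaxib replicates 1, 2 and 3 and at 4.38, 3.57 and 5.84 CPM in vehicle replicates 1, 2 and 3 (log2 fold change 3.16, SE 1.08, edgeR adjusted p = 0.51). Its size rests on setanaxib replicate 1. Tgfb1 was at 21.8, 28.1 and 26.2 CPM in setanaxib replicates 1, 2 and 3 and at 35.1, 40.3 and 34.8 CPM in vehicle replicates 1, 2 and 3 (log2 fold change -0.54, SE 0.13, edgeR adjusted p = 0.383, DESeq2 adjusted p = 0.00959). The platelet-derived growth factors, ligands of Pdgfra and Pdgfrb, were at -0.16 (Pdgfa), -0.71 (Pdgfb), -0.16 (Pdgfc) and -0.26 (Pdgfd), and only Pdgfb had groups without overlap. Pdgfrb, the receptor of pericytes and fibroblasts, was at 43.9 to 77.8 CPM with setanaxib and 84.3 to 101 CPM with vehicle (log2 fold change -0.54, SE 0.22, edgeR adjusted p = 0.598), so its groups were apart where those of Pdgfra overlapped. The difference between both receptors was not tested.

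Of 12 receptors 8 were lower, with a median of -0.08, and 2 had groups apart in each direction, against 9.46% of all genes lower and 8.11% higher. The betaglycan gene Tgfbr3 was higher without overlap, at 94.0 to 131 CPM with setanaxib and 65.4 to 77.3 CPM with vehicle (log2 fold change 0.59, SE 0.15, edgeR adjusted p = 0.396, DESeq2 adjusted p = 0.0155). The transforming growth factor receptors Tgfbr1 and Tgfbr2 were at 0.04 (SE 0.15) and -0.07 (SE 0.16) on the log2 scale. Of 20 transcription factors and cofactors of activation 14 were lower, with a median of -0.15; the groups were apart in 3 lower and 2 higher genes, near the shares over all genes, and none was called by edgeR or DESeq2. Yap1, a mechanosensitive cofactor, and Scx, a tendon and fibroblast factor, were the 2 with an unadjusted p under 0.05, at -0.27 (SE 0.10) and -0.60 (SE 0.24), with edgeR adjusted p of 0.552 and 0.583. Over all genes, 4.69% had such an unadjusted edgeR p on the lower side and 3.76% on the higher side.

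Over the 6 libraries, the profiles most like that of Pi16 belonged to genes of the activated matrix. Among 11482 candidate genes, the highest Pearson r of log2 CPM with Pi16 was that of Ltbp2 (0.997), a latent transforming growth factor binding protein, followed by Postn (0.989) and Thbs4 (0.980). Comp had Snx11 (0.991) and Serping1 (0.987) ahead of Sfrp2 (0.985), a secreted Wnt modulator of fibroblasts. Nearest to Meox1, Cilp and Pdgfra were Zfp142 (0.997), Kif3c (0.992) and Rnf150 (0.999), none of them in the fibroblast lists used here. Cthrc1 had Lmna (0.997), an r that includes setanaxib replicates 1 and 3, where Cthrc1 is listed at 0. Cilp was closer to Pi16 (r = 0.944) and Ddah1 (0.93) than to Meox1 (0.78), and Tcf21 was near 0 with Cilp (0.00926) and Cthrc1 (-0.0107). These coefficients rest on 6 libraries that share the group difference, and are given as a description.

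**Figure D5:**
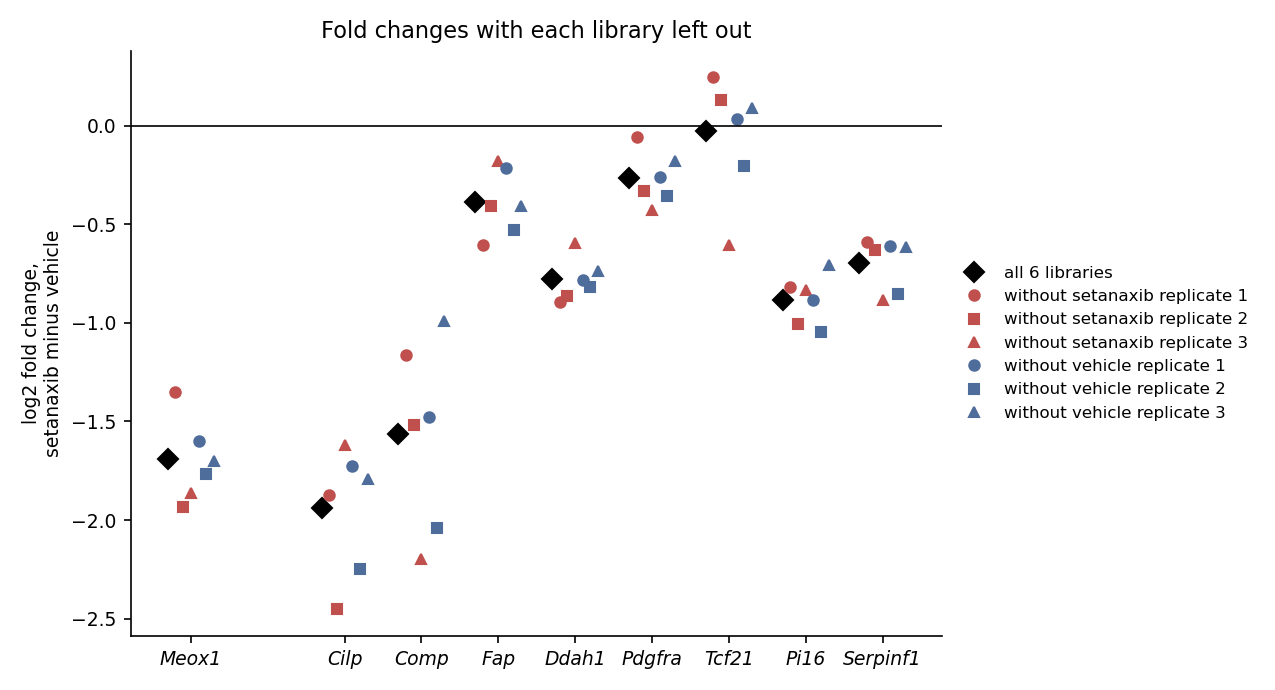
Log2 fold change, setanaxib minus vehicle (y axis), of 9 fibroblast genes with all 6 libraries (black diamonds) and with each library left out (colour: group of the omitted library; shape: its replicate). Meox1, Cilp and Pi16 stay below -0.70 in every fit, Tcf21 changes sign, and Cthrc1 is not drawn because 2 libraries are listed at 0.

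Markers of some other cell types were also lower with setanaxib. All 8 macrophage markers were lower with setanaxib without overlap, against 9.46% of all genes. Their summed level was 207 to 258 CPM in setanaxib libraries and 327 to 418 CPM in vehicle libraries. The summed level of smooth muscle and pericyte markers was 1449 to 2166 CPM with setanaxib and 2240 to 2342 CPM with vehicle. Des had the largest part in this sum, at 739 to 1167 CPM with setanaxib and 1250 to 1358 CPM with vehicle. The sum was not computed without Des, so its separation cannot be put down to the other markers. Singly, 4 of the 8 markers were lower without overlap, against 9.46% of all genes. Rgs5, Abcc9, Myh11 and Mcam overlapped between the groups, and Rgs5 and Abcc9 were the next largest parts of the sum. Endothelial markers overlapped, at 612 to 974 CPM with setanaxib and 819 to 925 CPM with vehicle, as did cardiomyocyte markers, at 34245 to 49135 CPM with setanaxib and 43743 to 46757 CPM with vehicle. Valve and tendon markers summed to 9.50, 13.6 and 51.2 CPM in setanaxib replicates 1, 2 and 3 and to 34.2, 15.0 and 29.9 CPM in vehicle replicates 1, 2 and 3, with Acan and Col2a1 at 0 throughout. Their part in the fibroblast gene values was not tested.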

How the data were processed

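The authors deposited an estimated count per gene and library, whole numbers not scaled between libraries, so no rounding was needed. The build GRCm39 and the tools STAR 2.5.4b, featureCounts 2.0.1, FastQC 0.11.9 and DESeq2 1.42.0 are named, without their roles, per the submitters' processing notes; per the file headers, the estimated counts have the form of StringTie's count script. Titles matched columns to samples. In R 4.3.3, genes were kept by filterByExpr (minimum count 10), libraries scaled by TMM, and setanaxib compared with vehicle by edgeR 4.0.16's quasi-likelihood F test (two-sided, threshold 0.05, standard errors from the F statistic). The design had assumed read counts; the same tests were used on the estimates. DESeq2 1.42.0 and limma 3.58.1 (voom) were alternatives, as were other scaling and filters and each library left out. Log2 CPM used a prior count of 2. Exon lengths and overlaps came from GENCODE M21 (GRCm38). Fits were tested on simulated data. Members, lists and named genes (up to 4 of lowest edgeR p per list, a few defining genes, and the 3 genes of highest r per member) were chosen with earlier results of these data known. The split by Myl7 and the omission of Cthrc1 were chosen after seeing the data. Replicate numbers follow record order.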

Additional observations from a re-analysis of the deposited data

How the results depend on the processing

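No paired analysis was possible because replicate numbers only follow the order of the records. The count of genes past the threshold was 1 in edgeR, 494 in DESeq2 (310 lower, 184 higher) and 0 in limma-voom, and ran from 0 to 1 with a library left out (0 without vehicle replicate 1, 2 or 3). The median of the activation genes ran from -1.90 to -1.26 and that of the resting genes from -0.72 to -0.33 with a library left out, where -0.72 was the value without setanaxib replicate 3. Tcf21 turned to 0.24, 0.13, 0.03 and 0.09 without setanaxib replicate 1 or 2 or vehicle replicate 1 or 3, and was -0.61 without setanaxib replicate 3; for the fall in calls and for this turn the cause was not tested. DESeq2 called Meox1, Cilp, Ddah1 and Pi16, which edgeR did not. The other 9 genes were lower under every alternative run on them, and Cthrc1, under 1 CPM, could not be fitted under the filter of at least 1 CPM in 3 libraries. DESeq2's size factors, no filter and leaving out mitochondrial genes moved no call among the 10. At 34 to 87 counts where above 0, Cthrc1 is the gene that depth limits; its values are estimates, so no counting interval is given.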
